A study of Mus musculus with 8 samples.

Results

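The genes described here are 6 genes of mineralisation and bone matrix: Tnfrsf11b, Mgp, Spp1, Enpp1, Postn and Runx2. They were taken by symbol from a table of 22200 genes, and all 6 were present. They had been chosen with their values in these same libraries known, so their levels and changes are given as a description and carry no test. The cells were mouse embryonic fibroblasts of 1 immortalised line on the C57BL/6 background. All libraries carry the genotype label TAF4-/-, TAF4 being part of the TFIID complex that starts transcription. The 3 groups were untreated cells at 12 h (n = 3 libraries), cells given retinoic acid (RA) for 12 h (n = 3) and cells given RA for 72 h (n = 2). No untreated library at 72 h was analysed here, so the effect of RA and of the time in culture cannot be told apart at 72 h. Every value is in normalised reads per gene, on a scale whose lowest value is 1 and whose median is 20.75. The depth of the libraries is not kept by this scale, so no counting error can be given.

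The sample titles carry cl1, which resembles the name C1 that the study gives to its TAF4-expressing line, whereas its methods name the TAF4-null line C3 for the RA experiment. Reads of Taf4a were listed in every library, between 984 and 1449, and those of its paralogue Taf4b between 49.5 and 99. No library of a TAF4-expressing line was analysed here, so these values do not check the genotype label. Of 9 fibroblast markers, Thy1 and Fap were under 20 in every library and the other 7, collagens and vimentin among them, were not. The summed fibroblast markers were 193262 to 216690 in untreated cells, 201032 to 208093 at RA 12 h and 173356 to 185600 at RA 72 h. Of the osteoblast markers, 6 of 9 symbols were found. Ibsp, Alpl, Sp7, Dmp1 and Sost were under 20 in every library, while Phex ran from 19.1 to 30.5. The summed list, Phex included, ran from 30.8 to 51.6. Of the smooth muscle markers, Myh11 was under 20 in every library, and Acta2, Tagln, Cnn1 and Des were not. Their sum was 27428 to 31424 in untreated cells, 27058 to 29042 at RA 12 h and 23609 to 25040 at RA 72 h. The chondrocyte, osteoclast and macrophage, endothelial and epithelial lists each summed to between 20.3 and 108 in every library. The adipocyte list, carried by Fabp4 and Pparg with Adipoq, Plin and Lpl under 20, summed to 189 to 242 in untreated cells, 382 to 436 at RA 12 h and 598 to 628 at RA 72 h. The part of these shifts in the changes given here was not tested. In bulk RNA, fewer cells of a type and less RNA per cell cannot be told apart.

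Mineral deposition in connective tissue is held in check by secreted inhibitors. Inorganic pyrophosphate, made outside the cell by ENPP1, blocks the growth of hydroxyapatite crystals, and matrix Gla protein (MGP) and osteopontin (SPP1) act as protein inhibitors in the matrix. Osteoprotegerin (TNFRSF11B) is the soluble decoy receptor for RANKL and so restrains osteoclast formation, periostin (POSTN) is a matricellular protein of the periosteum and of fibrous tissue, and RUNX2 is the master transcription factor of the osteoblast lineage. Fibroblasts express several of these genes without mineralising their matrix.

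RUNX proteins bind the core letters AACCACA, and the osteopontin gene is a textbook target of RUNX2. The 250 bases before the start of these 2 genes are therefore shown. They are from RefSeq on the assembly GRCm38.p6, which is not the assembly of the gene coordinates below. The sequences are written 5′ to 3′ on the strand of the gene, with the RUNX letters in capitals. They lie at chr5:104434861-104435110 on the + strand for the first of 2 starts of Spp1 and at chr17:44814628-44814877 on the - strand for Runx2.
Spp1: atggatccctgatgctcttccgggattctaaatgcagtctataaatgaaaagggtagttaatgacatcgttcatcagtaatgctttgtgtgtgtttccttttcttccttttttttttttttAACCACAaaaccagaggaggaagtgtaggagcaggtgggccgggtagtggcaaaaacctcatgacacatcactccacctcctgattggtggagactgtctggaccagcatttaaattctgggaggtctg
Runx2: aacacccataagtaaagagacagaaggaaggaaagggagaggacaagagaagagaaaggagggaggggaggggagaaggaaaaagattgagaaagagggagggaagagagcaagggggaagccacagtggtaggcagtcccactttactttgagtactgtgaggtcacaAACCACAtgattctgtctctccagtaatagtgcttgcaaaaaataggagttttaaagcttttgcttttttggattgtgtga

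Promoter sequences were found for 4 of the 6 genes, namely Spp1, Enpp1, Postn and Runx2. The letters AACCACA, searched on both strands, began 129 bases before the first of 2 starts of Spp1 and 81 bases before the start of Runx2. They were found neither before the second start of Spp1 nor in the windows of Enpp1 and Postn. Of 32536 promoters of the same length, 4.4% held them. The retinoid receptor half-site AGGTCA was found 89 bases before the start of Runx2, ending 2 bases short of the RUNX letters, and in reverse 138 bases before the first of 2 starts of Postn, against 14% of all promoters. The letters TATAAA lay 26 bases before the second start of Postn and 211 bases before the first start of Spp1, against 12.3% of all promoters. These matches describe the letters in the windows and are not binding sites. The share of G and C was 43.6% and 35.6% for the 2 starts of Spp1, 40.4% and 52.0% for those of Postn, 44.8% for Runx2 and 61.2% for Enpp1, with a median of 52.4% over all promoters.

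Of the 6 genes, Tnfrsf11b was lower at both times of RA, Mgp, Enpp1 and Postn were lower mainly at 72 h, Spp1 was 1.96-fold higher at 12 h and 1.31-fold lower at 72 h than in untreated cells, and Runx2 differed little. The lowest level relative to untreated cells was that of Mgp at 72 h, 6.73-fold below. The median log2 change of the 6 genes was -0.13 at 12 h and -1.27 at 72 h against untreated, and -1.08 at 72 h against 12 h. The medians over all 12673 genes tested were -0.02, -0.02 and -0.00 for these 3 comparisons. The plot of values by library shows each gene in its 3 groups.

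**Figure D1:**
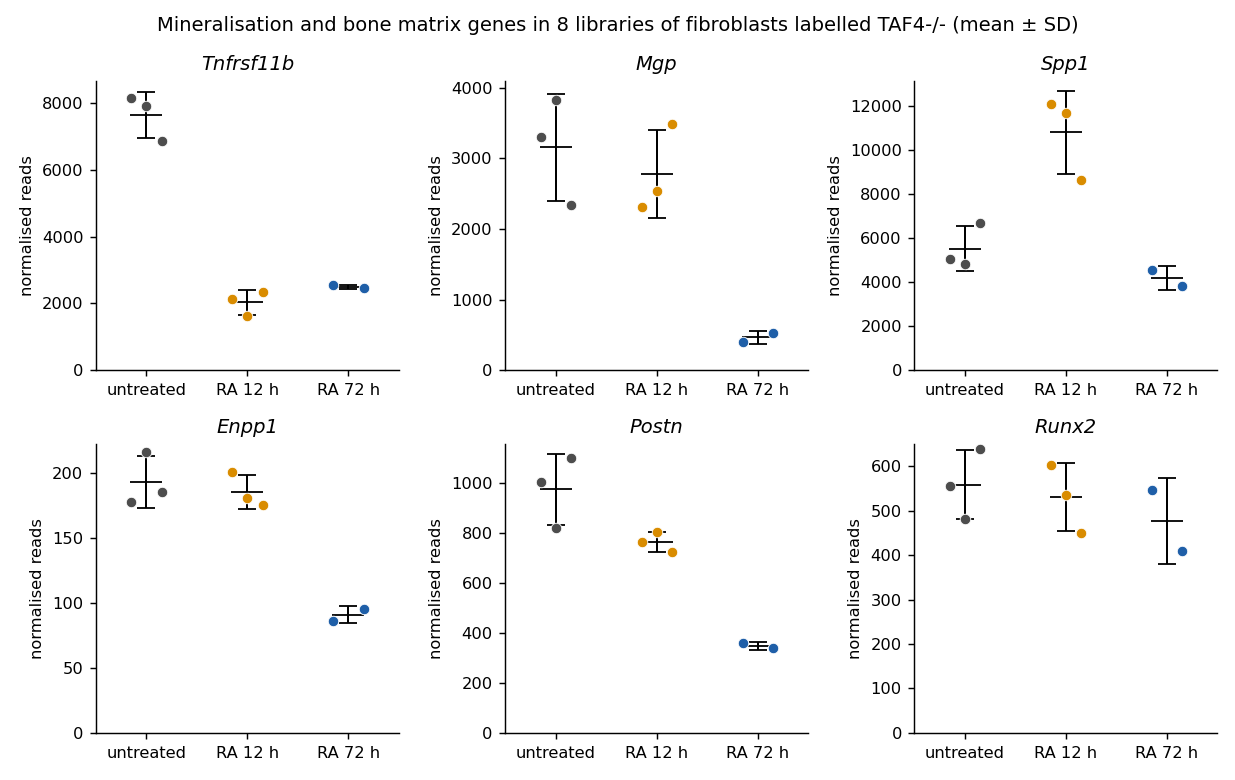
Normalised reads (y axis, linear from 0) of the 6 genes by group (x axis), with 1 point per library and black bars for the mean ± SD. The 3 untreated libraries of Tnfrsf11b lie between 6852 and 8145, above all RA libraries, and the 2 libraries of RA 72 h lie lowest for Mgp, Spp1, Enpp1 and Postn.

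Tnfrsf11b, encoding osteoprotegerin (ENSMUSG00000063727, mm9, chromosome 15, 54082174 to 54110039, - strand), had 8145, 7900 and 6852 normalised reads in untreated replicates 1 to 3. At RA 12 h it had 2130, 1614 and 2345, and at RA 72 h 2536 and 2456. All 5 RA libraries lay below all 3 untreated libraries, and both libraries of 72 h lay above the 3 of 12 h. The means were 7632 ± 687 (SD, n = 3) in untreated cells, 2029 ± 376 (SD, n = 3) at RA 12 h and 2496 ± 56.9 (SD, n = 2) at RA 72 h. On the scale log2(normalised reads + 1), used for every log2 change here, the change was -1.92 ± 0.13 (SE) at 12 h and -1.61 ± 0.15 (SE) at 72 h, or 3.79-fold and 3.05-fold lower. Most of the difference was thus present at 12 h, and the change from 12 h to 72 h was 0.32 ± 0.15 (SE).

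Mgp encodes matrix Gla protein, a vitamin K-dependent inhibitor of calcification (ENSMUSG00000030218, chromosome 6, 136820957 to 136824326, - strand). It had 3308, 3830 and 2338 normalised reads in untreated replicates 1 to 3, and 2306, 2536 and 3484 in those of RA 12 h. In the libraries of RA 72 h it had 396 and 532. The groups of untreated cells and RA 12 h overlapped, while both libraries of RA 72 h lay far below the other 6. The means were 3159 ± 757 (SD, n = 3), 2775 ± 625 (SD, n = 3) and 464 ± 96.7 (SD, n = 2). The log2 change was -0.18 ± 0.19 (SE) at 12 h and -2.75 ± 0.21 (SE) at 72 h, with -2.57 ± 0.21 (SE) from 12 h to 72 h. The difference thus appeared between the 12 h and 72 h libraries.

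Enpp1, whose product makes extracellular pyrophosphate from ATP (ENSMUSG00000037370, chromosome 10, 24357720 to 24431965, - strand), was the least abundant of the 6 genes. It had 178, 216 and 185 normalised reads in untreated cells, 201, 181 and 175 at RA 12 h, and 86.4 and 95.5 at RA 72 h. The first 2 groups overlapped and both libraries of RA 72 h lay below them. The means were 193 ± 20.3 (SD, n = 3), 186 ± 13.3 (SD, n = 3) and 90.9 ± 6.45 (SD, n = 2). The log2 change was -0.05 ± 0.13 (SE) at 12 h, -1.07 ± 0.15 (SE) at 72 h and -1.02 ± 0.15 (SE) from 12 h to 72 h. These sizes lie close to 2-fold, and without untreated replicate 2 the change at 72 h was -0.99. From 12 h to 72 h it was -0.96 without RA 12 h replicate 1 and -0.95 without RA 72 h replicate 1.

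Spp1, encoding the phosphorylated glycoprotein osteopontin (ENSMUSG00000029304, chromosome 5, 104864137 to 104870069, + strand), had 5051, 4814 and 6707 normalised reads in untreated replicates 1 to 3. At RA 12 h it had 12091, 11672 and 8647, and at RA 72 h 4574 and 3805. No groups overlapped, with RA 12 h highest and RA 72 h lowest. The means were 5524 ± 1031 (SD, n = 3), 10803 ± 1879 (SD, n = 3) and 4189 ± 543 (SD, n = 2). The log2 change was 0.97 ± 0.15 (SE) at 12 h, or 1.96-fold higher, -0.39 ± 0.17 (SE) at 72 h and -1.36 ± 0.17 (SE) from 12 h to 72 h. The size at 12 h lay just under 2-fold and passed it without untreated replicate 3 (1.12) or without RA 12 h replicate 3 (1.12). It was the only one of the 6 genes with its highest mean at RA 12 h.

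Postn, encoding periostin, a secreted protein that binds integrins and collagen (ENSMUSG00000027750, chromosome 3, 54165031 to 54194961, + strand), had 1002, 818 and 1099 normalised reads in untreated cells. It had 764, 802 and 722 at RA 12 h and 358 and 337 at RA 72 h. The groups did not overlap and their order was untreated, RA 12 h, RA 72 h from the highest to the lowest, although the lowest untreated library, at 818, was close to the highest of RA 12 h, at 802. The means were 973 ± 143 (SD, n = 3), 763 ± 40.4 (SD, n = 3) and 348 ± 14.7 (SD, n = 2). The log2 change was -0.34 ± 0.12 (SE) at 12 h, -1.47 ± 0.13 (SE) at 72 h and -1.13 ± 0.13 (SE) from 12 h to 72 h.

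Runx2 (ENSMUSG00000039153, chromosome 17, 44632936 to 44951746, - strand) had 557, 482 and 638 normalised reads in untreated cells, 604, 535 and 451 at RA 12 h, and 546 and 409 at RA 72 h. All 3 groups overlapped. The means were 559 ± 77.9 (SD, n = 3), 530 ± 76.7 (SD, n = 3) and 477 ± 97.1 (SD, n = 2), so neighbouring groups differed by less than 1 SD. The log2 change was -0.08 ± 0.15 (SE) at 12 h and -0.23 ± 0.17 (SE) at 72 h. The value at 72 h rested on single libraries, at -0.44 without RA 72 h replicate 1 and -0.02 without replicate 2. Runx2 spans 319 kb, and the mm9 annotation holds a second Runx2 entry (ENSMUSG00000092206) that overlaps it by 207267 bases on the same strand and has no line of its own in the table used here. It also shares 37646 bases with Supt3h on the opposite strand, and the strand setting of the counting is not given in the sources used here. Supt3h had 222 to 285 normalised reads in untreated cells, 228 to 252 at RA 12 h and 301 to 333 at RA 72 h. Reads of the shared bases could therefore belong to either gene.

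**Figure D2:**
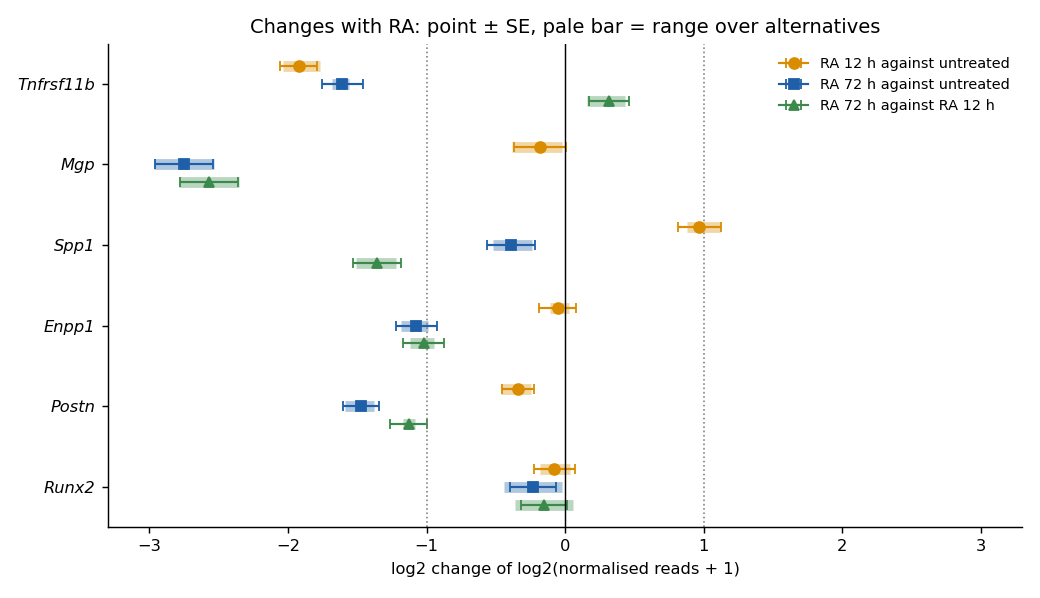
Log2 change of each gene (x axis, log2 of normalised reads + 1) in the 3 comparisons, with points for the estimate, thin bars for ± SE and pale bars for the range over the alternative settings. Dotted lines mark a change of 2-fold. Mgp at 72 h lies farthest from 0 at -2.75, and Runx2 lies within 0.44 of 0 under every setting.

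A gene was called where the limma adjusted p was below 0.05 and the change was at least 2-fold. Among the 6 genes, 1 was called lower at 12 h (Tnfrsf11b) and 0 higher, where 0.308% of all genes tested were called lower and 1.11% higher. At 72 h against untreated, 4 were called lower (Tnfrsf11b, Mgp, Enpp1 and Postn) and 0 higher, where 1.52% were called lower and 2.15% higher. At 72 h against 12 h, 4 were called lower (Mgp, Spp1, Enpp1 and Postn), where 0.734% of all genes were, and 0 higher, where 0.765% were. Groups did not overlap in 3 of the 6 genes at 12 h, in 5 at 72 h against untreated and in 5 at 72 h against 12 h, beside 20%, 36.6% and 37.3% of all genes tested. The 6 genes were chosen on these contrasts, so the calls given for them are a description and not a test. Nothing is read from these shares. The comparisons at 72 h share the same 2 libraries, and both comparisons with untreated cells share the same 3.

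Per kilobase of annotated exon, the levels of the 6 genes in untreated cells fell into 2 ranges. Mgp had 5282 ± 1267 normalised reads per kb (SD, n = 3), Spp1 3352 ± 626 and Tnfrsf11b 2708 ± 244. Postn had 124 ± 18.2, Runx2 63.2 ± 8.81 and Enpp1 18.8 ± 1.98. The lowest library of Mgp (3909) lay below the highest of Spp1 (4070), whereas the lowest of Spp1 (2921) lay just above the highest of Tnfrsf11b (2890). At RA 12 h Spp1 was highest with 6555 ± 1140, before Mgp with 4641 ± 1045 and Tnfrsf11b with 720 ± 133 (SD, n = 3), although in replicate 3 Mgp (5827) lay above Spp1 (5247). At RA 72 h Spp1 had 2542 ± 330, Tnfrsf11b 886 ± 20.2 and Mgp 776 ± 162 (SD, n = 2), where the libraries of the last 2 genes overlapped. Division by length holds for libraries made from fragmented RNA, as in the study's methods, and not for the tag libraries that the sample labels describe. The latter place a single tag on each transcript.

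The other genes of mineralisation and bone matrix were described with 7 lists, none of which held any of the 6 genes. The lists held 74 genes of the table, of which 48 had a mean of at least 10 and were tested. At RA 12 h, 0 of these 48 passed the call, beside 1.42% of all genes. An unadjusted limma p below 0.05 was found for 20 of the 48, beside 16.3% of all genes. By the adjusted p alone, 7 were higher and 3 lower, beside 4.37% of all genes. At 72 h against untreated, 4 rose (Phospho1, Enpp2, Tnc and Twist2) and 2 fell (Tgfbi and Thbs1), beside 3.67% of all genes. At 72 h against 12 h, 1 rose (Enpp2) and 3 fell (Nt5e, Tgfbi and Thbs1), beside 1.5%. The unadjusted limma p was below 0.05 for 19 at 72 h against untreated, beside 23.9% of all genes. It was so for 20 at 72 h against 12 h, beside 18.9%. The median log2 change of the 48 genes was 0.10 at 12 h, -0.04 at 72 h and -0.16 from 12 h to 72 h.

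Of the pyrophosphate and phosphate handling genes, 11 of 13 were tested. Enpp2 encodes autotaxin, a secreted relative of ENPP1 that makes lysophosphatidic acid and not pyrophosphate. It had 167, 219 and 205 normalised reads in untreated cells, 267, 264 and 250 at RA 12 h, and 893 and 752 at RA 72 h. Both libraries of 72 h lay above all others, with a log2 change of 2.06 ± 0.14 (SE, adjusted p = 1.00e-06) at 72 h against untreated. The paralogues Enpp1 and Enpp2 thus had opposite directions at 72 h, while Enpp3 was listed at 11 to 25.3. Phospho1, a phosphatase that releases phosphate inside matrix vesicles, had 53.1 to 67.4 in untreated cells and 163 and 177 at RA 72 h, a log2 change of 1.48 ± 0.20 (SE, adjusted p = 0.000242). Nt5e encodes CD73, which makes adenosine from AMP downstream of ENPP1. It had 118 to 171 normalised reads in untreated cells, 263 to 318 at RA 12 h and 96.6 and 88.9 at RA 72 h, and its log2 change from 12 h to 72 h was -1.60 ± 0.17 (SE, adjusted p = 0.000151). Nt5e thus had the same order of groups as Spp1.

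Ank, the pyrophosphate exporter, was chosen after its values were seen, as it missed the 2-fold minimum. It had 424, 409 and 605 normalised reads in untreated cells, 949, 933 and 752 at RA 12 h and 536 and 457 at RA 72 h. The 12 h libraries lay above all others, with a log2 change of 0.89 ± 0.15 (SE, adjusted p = 0.00335). At 72 h against untreated its change was 0.07 ± 0.17 (SE, adjusted p = 0.853). The phosphatase Alpl, which destroys pyrophosphate in bone, was at 4.13 to 15.1 in all libraries and was not tested.

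In the list of matricellular and non-collagen matrix proteins, 11 of 15 were tested. Thbs1, encoding thrombospondin 1, had 47208, 53627 and 36832 normalised reads in untreated cells, 24403, 25192 and 25192 at RA 12 h, and 6948 and 7089 at RA 72 h. The groups did not overlap, and the log2 change was -2.69 ± 0.15 (SE, adjusted p = 1.22e-07) at 72 h and -1.83 ± 0.15 (SE, adjusted p = 2.25e-05) from 12 h to 72 h. Tgfbi, a paralogue of Postn with the same fasciclin domains, had 83 to 92.9 in untreated cells, 67.6 to 78.8 at RA 12 h and 25.8 and 40.9 at RA 72 h. Its log2 change at 72 h was -1.41 ± 0.21 (SE, adjusted p = 0.000721), the same direction as that of Postn. Tnc, encoding tenascin C, was on the other side, with 2563 to 3131 in untreated cells and 5215 and 6365 at RA 72 h, a log2 change of 1.07 ± 0.13 (SE, adjusted p = 0.000107). Without RA 72 h replicate 2 the change of Tnc was 0.92 and no longer 2-fold. The change of Tgfbi from 12 h to 72 h, -1.18 ± 0.21 (SE, adjusted p = 0.0055), was -0.85 without RA 72 h replicate 1 and lost its call.

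Of the osteoblast transcription factors and RUNX2 partners, 11 of 16 were tested. Twist2, a factor that restrains RUNX2 activity, had 195 to 267 normalised reads in untreated cells, 395 to 430 at RA 12 h and 594 and 639 at RA 72 h. The groups did not overlap, and the log2 change at 72 h was 1.46 ± 0.14 (SE, adjusted p = 1.68e-05). None of the other 10 was called in any comparison by limma, and 5 of the list, among them Sp7, Dlx5 and Sox9, lay below the minimum mean of 10.

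The remaining lists had no called gene in any comparison, and their most abundant genes are given. On the RANKL and osteoprotegerin axis 3 of 8 genes were tested. The ligand Tnfsf11 was at 3.38 to 9.13 and the receptor Tnfrsf11a at 3 to 13.4 normalised reads in all libraries, so that Tnfrsf11b was the only one of these 3 partners above the low range. Csf1, encoding macrophage colony-stimulating factor, had 12493 to 13987 in untreated cells, 8556 to 10646 at RA 12 h and 15625 and 17755 at RA 72 h. Its log2 change was -0.50 ± 0.11 (SE, adjusted p = 0.022) at 12 h and 0.81 ± 0.13 (SE, adjusted p = 0.00199) from 12 h to 72 h, both under 2-fold. Among Gla proteins and vitamin K carboxylation genes, 4 of 7 were tested. Their most abundant gene Pros1, encoding protein S, had a log2 change of -0.36 ± 0.14 (SE, adjusted p = 0.198) at 12 h and 0.19 ± 0.15 (SE, adjusted p = 0.517) at 72 h.

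Of the integrin-binding glycoproteins and their receptors, the relatives and partners of Spp1, 4 of 9 were tested. The receptor subunit Itgb5 was most abundant, with a log2 change of 0.19 ± 0.17 (SE, adjusted p = 0.606) at 12 h and -0.00 ± 0.19 (SE, adjusted p = 0.997) at 72 h. Cd44, another osteopontin receptor, was chosen after its values were seen. It had 2768 to 3428 normalised reads in untreated cells, 1979 to 2128 at RA 12 h and 1531 and 1582 at RA 72 h, and its log2 change at 72 h was -0.95 ± 0.11 (SE, adjusted p = 0.000108), under 2-fold. Of the osteoblast and hypertrophic cartilage products, 4 of 6 were tested. The collagen gene Col1a1 was most abundant, with a log2 change of 0.50 ± 0.17 (SE, adjusted p = 0.137) at 12 h and -0.02 ± 0.19 (SE, adjusted p = 0.97) at 72 h. Col1a1 had the same value, 65328, in all 3 libraries of RA 12 h, which the shared ranks of the normalisation give to the most abundant genes.

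**Figure D3:**
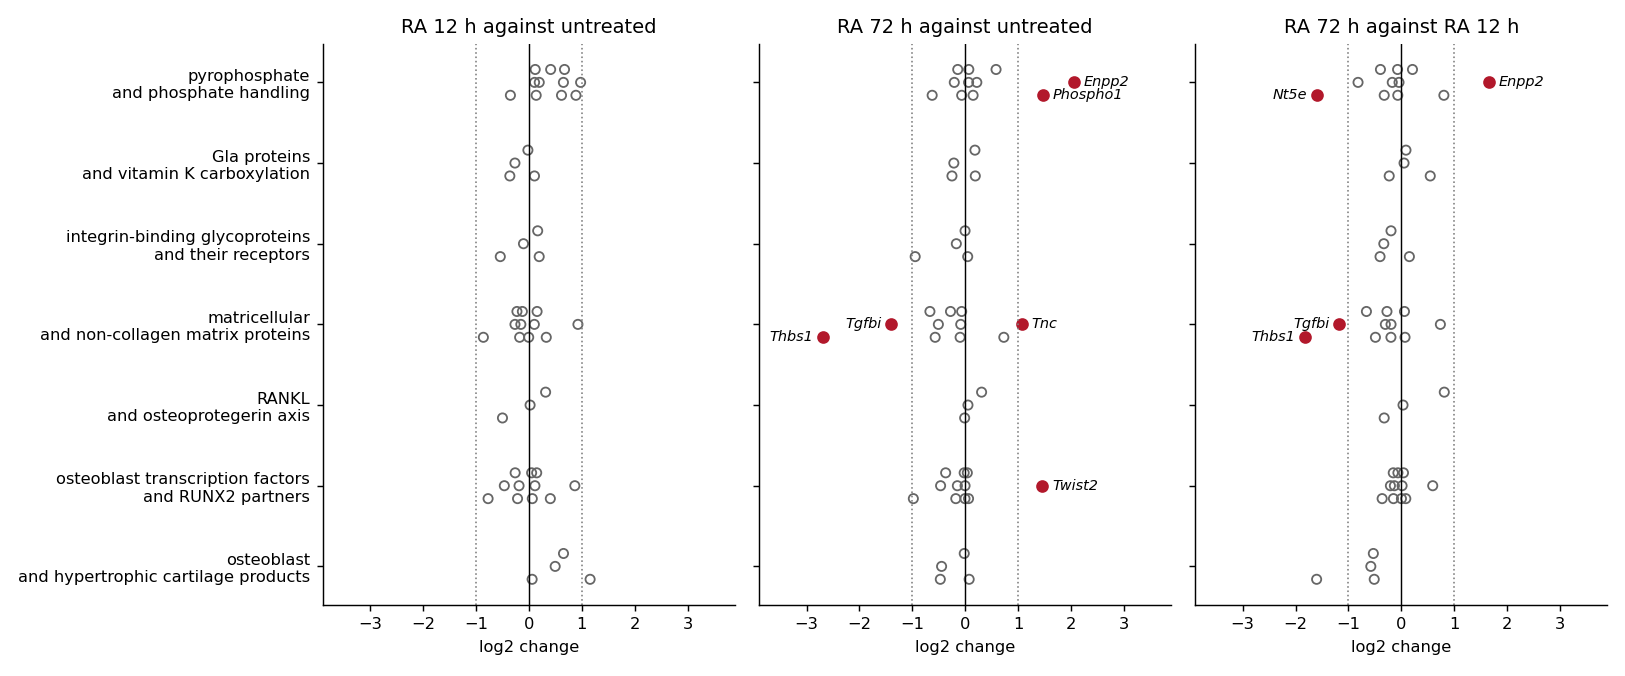
Log2 change (x axis) of the 48 tested genes of the 7 lists (y axis) in the 3 comparisons, with 1 circle per gene. Filled red circles are called genes with their symbols, open circles are not called, and dotted lines mark 2-fold. No circle is filled at 12 h, 6 are at 72 h against untreated and 4 at 72 h against 12 h.

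Spp1 lies at the end of a cluster of genes for secreted phosphoproteins of bone and teeth. Dspp starts 264 kb, Dmp1 232.5 kb, Ibsp 136 kb and Mepe 110 kb upstream of the start of Spp1. All 4 were between 1 and 4.13 normalised reads in every library, whereas Spp1 was between 3805 and 12091. On the other side Pkd2, encoding polycystin 2, starts 24.3 kb downstream of the start of Spp1 and had 814 to 1068, with a log2 change of -0.09 ± 0.10 (SE, adjusted p = 0.67) at 12 h and -0.28 ± 0.11 (SE, adjusted p = 0.137) at 72 h. Among the tested genes within 500 kb, Hsd17b11, a steroid dehydrogenase gene 413 kb upstream, was called, with a log2 change of -1.07 ± 0.13 (SE, adjusted p = 0.000113) at 72 h. It was chosen after its values were seen.

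**Figure D4:**
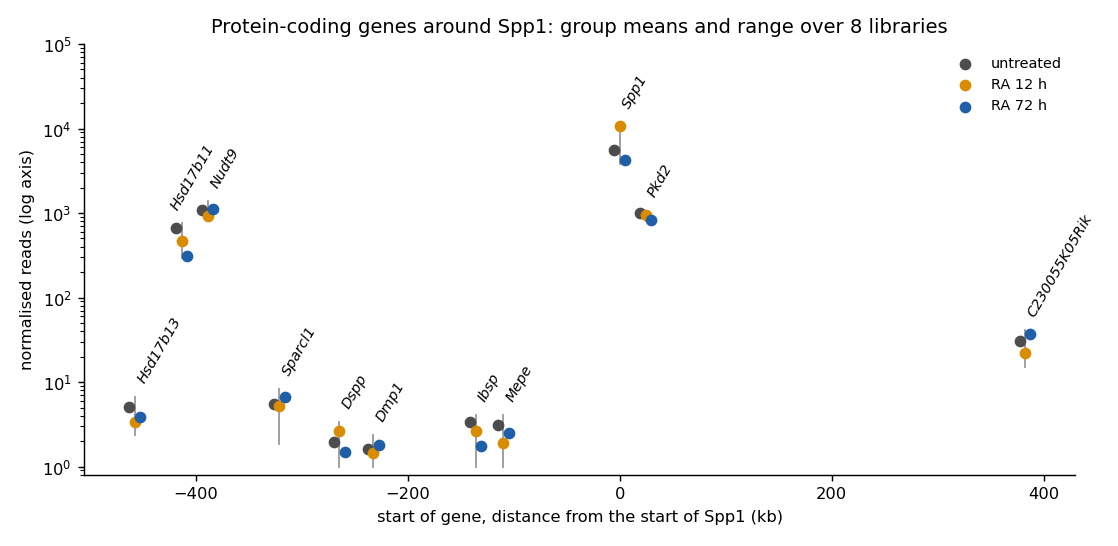
Normalised reads (y axis, log scale) of protein-coding genes whose start lies within 500 kb of that of Spp1, against the distance of the starts (x axis, kb). Points are group means, shifted sideways by 5 kb for untreated and RA 72 h so that they can be told apart, and grey lines the range over the 8 libraries. Dspp, Dmp1, Ibsp and Mepe lie between 1 and 4.13, far below Spp1.

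The nearest protein-coding genes on each side of the 6 genes were also read. Of these 12 neighbours, 8 were tested, and 0 were called in any of the 3 comparisons by limma. At an unadjusted p below 0.05 there were 2 at 12 h, 3 at 72 h against untreated and 1 at 72 h against 12 h, with Ctgf beside Enpp1 in all 3 comparisons. Of all genes tested, 16.3%, 23.9% and 18.9% did so. Ctgf, encoding connective tissue growth factor, had a log2 change of 0.71 ± 0.13 (SE, adjusted p = 0.00532) at 12 h and 0.34 ± 0.15 (SE, adjusted p = 0.171) at 72 h, while Enpp1 was level at 12 h and lower at 72 h. Neither neighbour of Mgp, Art4 and Erp27, reached the minimum mean of 10.

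The tested genes with the pattern most like each of the 6 were found by the root mean square difference of log2 values over the 8 libraries, each gene centred on its own mean. Tnfrsf11b was most like Ahr (0.25), AC122038.3 (0.25) and Cxcl1 (0.29), where Ahr encodes the aryl hydrocarbon receptor. Mgp had no gene within 0.25 and was most like Optc (0.30), Gchfr (0.34) and Lrrc17 (0.36). Optc had a mean of only 3.88 normalised reads at RA 72 h, near the lowest value of the scale. Spp1 was most like Serpine2 (0.16), Dapk2 (0.17) and Nt5e (0.19), with 8 genes within 0.25. Nt5e is thus both a gene of the pyrophosphate list and among the 3 genes most like Spp1. Postn was most like Col3a1 (0.11), H2-K1 (0.15) and Vcan (0.15), with 45 genes within 0.25, of which Col3a1 encodes a fibrillar collagen and Vcan the proteoglycan versican. Enpp1 had 179 genes within 0.25, among them Cxcl15 (0.09) and Tll1 (0.10). Runx2, the flattest of the 6, had 4075 genes within 0.25, the first being Atp6v1c1 (0.04), Tmem112 (0.06) and Ptprg (0.06). The root mean square of each of the 6 about its own mean ran from 0.20 (Runx2) to 1.18 (Mgp). The numbers of genes within 0.25 therefore depend on how much a gene varied and cannot be compared between the 6. Between the 6 genes themselves, Enpp1 and Postn were closest at 0.26 and Tnfrsf11b and Spp1 farthest apart at 1.30. The 8 points share their libraries, so these distances are a description.

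Libraries of the same group differed along a shared axis that held 50.1% of the within-group variance of all genes tested. Replicates 1 and 2 of untreated cells lay on its first side together with replicate 3 of RA 12 h and replicate 2 of RA 72 h, and the remaining 4 libraries on its other side. The labels name no batch. A uniform background estimated from genes of over 100 kb was 90.0 to 125 reads per Mb on the first side and 150 to 160 on the other. Its part in the axis was not tested. Of the 6 genes, Mgp and Spp1 differed in sign between the sides in every library. Mgp was above its group mean in all 4 libraries of the first side, by 0.10 to 0.35 on the log2 scale, and at -0.40 to -0.11 in all 4 of the other. Spp1 ran the opposite way, at -0.31 to -0.11 on the first side and 0.13 to 0.30 on the other. The other 4 genes had deviations of both signs on at least one side, although Runx2 (-0.22 to 0.00 on the first side and 0.03 to 0.21 on the other) and Postn (-0.24 to 0.05 and 0.00 to 0.19) lay mostly as Spp1 did.

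Untreated replicate 3 lay farthest along this axis. Without it, the log2 change at 12 h was 1.12 for Spp1 and -0.38 for Mgp. At 72 h against untreated it was -2.95 for Mgp, -1.68 for Tnfrsf11b, -1.38 for Postn, -1.10 for Enpp1 and -0.24 for Spp1. That omission leaves the untreated libraries all on the first side of the axis, while RA 12 h has libraries on both sides. Within the sides, the log2 change at 12 h was 0.81 and 0.82 for Spp1 and -0.03 and 0.05 for Mgp. With all libraries it was 0.97 and -0.18. Each comparison within a side holds 1 library in one of its groups and was not tested.

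**Figure D5:**
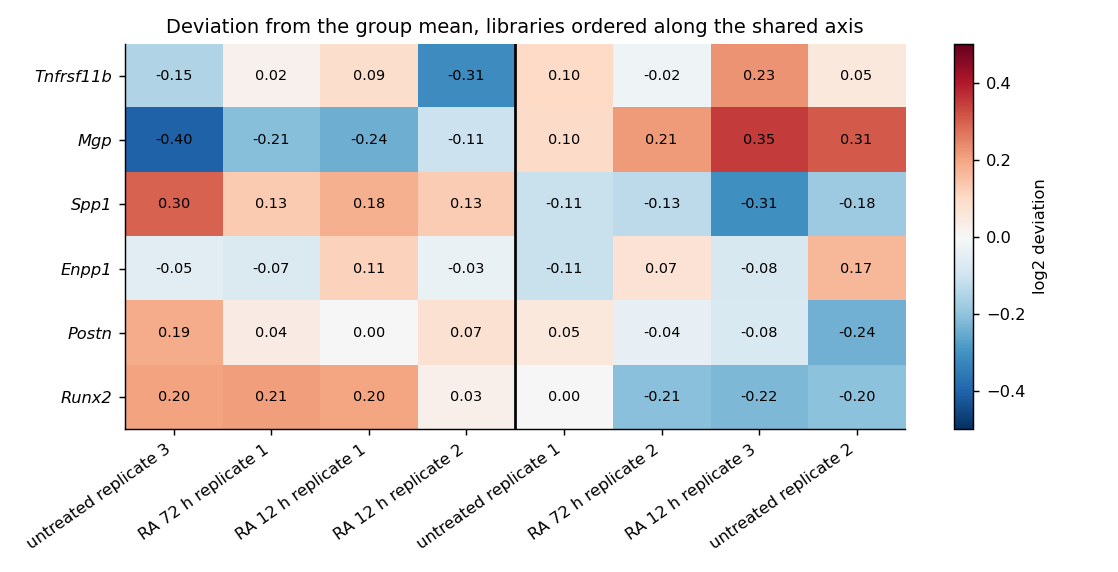
Deviation of each gene from its group mean (colour and printed number, log2 scale) in the 8 libraries (x axis), ordered along the axis shared by all genes, with a black line between its sides. Mgp is below 0 left of the line and above 0 right of it, and Spp1 the reverse. With 2 libraries at RA 72 h their deviations mirror each other by construction.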

How the data were processed

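The 8 libraries were assigned to 3 groups by their treatment and time labels. The authors deposited normalised reads per Ensembl gene, handled here as a score, since all 8 columns held identical sorted values (each summing to 9442018.6) and are thus quantile normalised. They are not counts, so no count test was run, and the depth of each library is unknown. Per the study's methods, the authors aligned reads from fragmented RNA to mm9 with Tophat, quantified them with Cufflinks and Ensembl models and normalised them with DESeq, whereas the labels describe DpnII tag libraries with short reads. The methods also give a later RA time other than 72 h, whereas the study's results and the labels both give 72 h, which was followed. The design text states 7 samples where the table holds 8. Deposited log2 ratios of the groups hold the authors' own comparisons and were not used.

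Values were transformed as log2(value + 1), and the 12673 genes with a mean of at least 10 were fitted with limma (3.58.1, R 4.3.3), with 3 groups, a variance trend and two-sided Benjamini-Hochberg adjustment within each of 3 contrasts. A call needed an adjusted p below 0.05 and a change of at least 2-fold. All 8 libraries shared 1 estimate of spread. The script was tested on simulated data with independent noise in each library. Those data held no axis shared by the libraries, so false calls under such an axis were not tested. The labels do not say that replicates came from separate cultures, so p-values measure only the spread between these libraries, which may be technical. The 6 genes, the lists and the tests were chosen with earlier results of these data known. Named genes were the 6 genes, every called gene of the 7 lists, the most abundant gene of a list without one, and the 3 genes most like each of the 6, of which 1 is not reported here. Coordinates are 1-based on mm9, and 96.7% of identifiers were found in its annotation. Alternatives changed the pseudocount, filter, fold minimum, trend, replicate block, within-group axis, a subtraction of reads spread over gene bodies, and each library in turn.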

Additional observations from a re-analysis of the deposited data

Results flagged for a closer look

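Changes from RA 12 h to RA 72 h were tested directly, by the limma contrast of the 2 times, and 4 genes of the lists differed between them. Nt5e was lower at 72 h by a log2 change of -1.60, and it was above the untreated libraries at 12 h and below them at 72 h. Enpp2 was higher at 72 h than at 12 h by 1.65 on the log2 scale. Tgfbi was lower by -1.18 and Thbs1 by -1.83. The change of Tgfbi was -0.85 without RA 72 h replicate 1. With 2 or 3 libraries a group, no test for a single outlying value of a gene was run.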

How the results depend on the processing

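Over the alternatives, the 10 calls of list genes held in 172 fits and were lost in 8, of which 5 were with a 3-fold minimum, and 0 were reversed. Some alternatives cannot move the size of a log2 change: the filter, the variance trend, the axis term, and leaving out a library of a group not compared. Nor can the replicate block at 12 h. The limit for a move was the limma SD between libraries of a group, moderated over all genes tested. With those fits counted, the log2 changes of the 6 genes moved by more than this SD in 4 fits, all of Runx2. The changes, which carry no test, moved by less in 284 fits. Some of these crossed 2-fold all the same: Enpp1 at 72 h was -0.99 without untreated replicate 2, from 12 h to 72 h -0.96 without RA 12 h replicate 1 and -0.95 without RA 72 h replicate 1 or with a pseudocount of 10, and Spp1 at 12 h was 1.12 without untreated or RA 12 h replicate 3. Without a fold minimum, 554 genes (10 of the lists) were called at RA 12 h, 1456 (13) at 72 h and 740 (13) at 72 h against 12 h. With a 3-fold minimum the numbers were 59, 165 (2 of the lists, Enpp2 and Thbs1) and 41. With a minimum mean of 50, 297 genes were called at 72 h. With the within-group axis as a term, 1 list gene (Mmp13) was called at 12 h. Leaving out each library gave 148 to 322 genes at 12 h (322 without untreated replicate 3), 356 to 641 at 72 h and 150 to 211 at 72 h against 12 h. List genes then ranged from 0 to 3 (Ank, Nt5e and Thbs1 without untreated replicate 3), 5 to 7 and 3 to 5. Tgfbi at 72 h against 12 h was -0.99 with a pseudocount of 10.

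The replicate block gave 174 genes and 0 list genes at 12 h and moved no count of calls by over 1.5 times. Libraries with the same number deviated with correlations from -0.474 to 0.420. Deviations within groups of 2 or 3 libraries depend on each other, so these values cannot decide whether the numbers pair the libraries. A uniform background estimated from genes of over 100 kb made up at most 13.8% of the reads of Enpp1 and 9.72% of those of Runx2, and at most 1.34% of those of the other 4 genes. At RA 72 h, 2 libraries limit every SD.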
